A study of Mus musculus with 72 samples.

Results

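The nuclear-encoded subunits of the respiratory chain and ATP synthase were followed through 72 RNA-Seq libraries from mice conceived by in vitro fertilization (IVF) or naturally, and from their offspring. Members were all gene symbols that begin with Nduf (subunit letters a, b, c, s and v), Uqcr, Cox4 to Cox8 or Atp5, together with Sdha, Sdhb, Sdhc and Sdhd. Symbols marked as pseudogenes were left out. This gave 89 member symbols among 37108. By symbol, 37 were counted with complex I, 4 with complex II, 8 with complex III, 20 with complex IV and 20 with complex V. Atp5pb, listed at E18.5 alone, is the gene listed as Atp5f1 elsewhere, so it was counted under both symbols. Atp5s and Atp5sl were counted with complex V by symbol alone, and whether they are subunits was not examined. Ndufa4 and its paralog Ndufa4l2 were counted with complex IV. The E18.5 table listed 86 members of 25239 symbols and the other 6 tables listed 84 each, of 35976 symbols. Ndufa11b and Ndufb4c of complex I were listed at E18.5 alone, and 3 Atp5 genes carried other symbols there.

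The respiratory chain passes electrons from NADH and succinate through complexes I to IV to oxygen, and complex V, the ATP synthase, uses the proton gradient so built to make ATP. Complexes I, III, IV and V join a few subunits made inside the mitochondrion to many whose genes lie in the nucleus, while all subunits of complex II, succinate dehydrogenase, are nuclear. Several small subunits of complex IV, cytochrome c oxidase, exist as tissue forms: Cox6b2, Cox7b2 and Cox8c are known as the testis forms of Cox6b1, Cox7b and Cox8a, while Cox6a2, Cox7a1 and Cox8b are known from heart and skeletal muscle.

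The F1 animals came from CF-1 females. The sires of both groups were SJL/B6 males heterozygous for a GFP transgene. Naturals came from mating, and the IVF group from superovulated CF-1 eggs that were fertilized in vitro, cultured to blastocysts and transferred to pseudopregnant CF-1 females. F1 testes were taken at E18.5 (4 natural, 6 IVF), 12 weeks (5 and 5) and 39 weeks (4 and 6), and the adult cohorts were delivered by cesarean section and fostered. The F2 animals, 12 weeks old, had an IVF-conceived or a natural father and a wild-type CF-1 mother, so that F2 embryos of both groups were conceived by mating. F2 tissues were testis (5 natural, 7 IVF), male liver (5 and 5), female liver (5 and 6) and ovary (4 and 5). The description of the series gives 4 natural and 4 IVF female livers, and all labelled libraries were used. Here, IVF and natural denote the conception of the animal in F1 and of its father in F2. The methods of the study name 5 individuals per group from different litters for the F1 testes, and cohorts drawn from 5 litters per age. The IVF groups at E18.5 and 39 weeks hold 6 libraries, so litter mates among them are possible. For the F2 libraries the sources used here do not say which came from litter mates or shared a father. The study names 4 breeding pairs per group for its count of pups, so some libraries may share a father. P-values for F2 thus measure the spread between these libraries and not between fathers.

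Total counts per library ranged from 543745 to 90441392 with a median of 1.6e+07. The shallowest livers were male IVF 2 and 3 and female natural 1 and 3, with 2137355, 543745, 3947645 and 4248128 counts, against at least 7098069 in every other liver. At E18.5 the natural libraries held 2.9e+06 to 4.87e+06 counts and the IVF libraries 8.5e+06 to 1.57e+07, so that depth and conception could not be told apart there. Some libraries stood apart before any comparison. Male liver natural 1, 4 and 5 held transcripts of spermatids: Prm1, a protamine, had 240, 134 and 313 counts there, against 1 and 0 in natural 2 and 3 and at most 3 in the IVF male livers. Transcripts of the mitochondrial genome took 2.74% to 3.72% of counts in natural male livers but 7.2% to 36.5% in IVF male livers. In female livers the order was the opposite, with 5.59% to 16.1% in naturals and 2.01% to 3.82% in the IVF group. The labelled tissues carried their markers: 8 hepatocyte markers summed to 73042 to 243520 counts-per-million (CPM) in livers and to at most 456.6 CPM in any testis or ovary. Elongating spermatid markers summed to 5.23 to 10.7 CPM at E18.5 and to 15226 to 19183 CPM at 12 weeks.

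The 300 bases around the start sites of the isoform genes are shown first because the largest differences between tissues lay in them. Cox8c was not among the promoters searched, so of its pair only Cox8a is shown. The sequences are those of RefSeq on GRCm38.p6 and run 5′ to 3′ on the gene's strand, from 250 bases before the start to 50 after it. Cox6b2 lies at chr7:4753045-4753344 and Cox6b1 at chr7:30626065-30626364, both on the minus strand. Cox7b2 lies at chr5:71548156-71548455 on the minus strand, Cox7b at chrX:106015450-106015749 on the plus strand and Cox8a at chr19:7217567-7217866 on the minus strand. Capitals mark matches to CCGGAAG on either strand, the core bound by ETS factors such as GABP, an activator of respiratory genes.
Cox6b2: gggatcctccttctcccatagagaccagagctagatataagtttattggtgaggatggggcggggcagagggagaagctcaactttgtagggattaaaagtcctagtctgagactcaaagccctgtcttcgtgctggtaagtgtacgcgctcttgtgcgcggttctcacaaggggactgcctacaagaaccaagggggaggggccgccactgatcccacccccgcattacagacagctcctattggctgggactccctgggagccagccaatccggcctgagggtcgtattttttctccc
Cox6b1: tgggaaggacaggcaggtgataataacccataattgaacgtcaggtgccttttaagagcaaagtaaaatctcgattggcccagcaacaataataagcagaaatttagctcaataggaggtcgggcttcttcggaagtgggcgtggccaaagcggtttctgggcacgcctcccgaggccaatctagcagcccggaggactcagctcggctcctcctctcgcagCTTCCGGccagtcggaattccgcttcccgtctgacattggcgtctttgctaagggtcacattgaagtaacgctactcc
Cox7b2: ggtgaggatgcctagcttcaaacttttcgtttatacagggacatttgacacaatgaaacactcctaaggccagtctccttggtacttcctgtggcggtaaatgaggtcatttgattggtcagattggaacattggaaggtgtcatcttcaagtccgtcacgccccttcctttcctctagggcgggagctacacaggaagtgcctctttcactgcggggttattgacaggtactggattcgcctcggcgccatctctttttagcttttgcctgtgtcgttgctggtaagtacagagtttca
Cox7b: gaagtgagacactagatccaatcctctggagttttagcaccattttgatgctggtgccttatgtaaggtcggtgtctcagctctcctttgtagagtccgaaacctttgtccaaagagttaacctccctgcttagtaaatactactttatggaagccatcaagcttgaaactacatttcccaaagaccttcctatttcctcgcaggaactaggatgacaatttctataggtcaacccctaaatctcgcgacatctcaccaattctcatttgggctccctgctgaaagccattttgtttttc
Cox8a: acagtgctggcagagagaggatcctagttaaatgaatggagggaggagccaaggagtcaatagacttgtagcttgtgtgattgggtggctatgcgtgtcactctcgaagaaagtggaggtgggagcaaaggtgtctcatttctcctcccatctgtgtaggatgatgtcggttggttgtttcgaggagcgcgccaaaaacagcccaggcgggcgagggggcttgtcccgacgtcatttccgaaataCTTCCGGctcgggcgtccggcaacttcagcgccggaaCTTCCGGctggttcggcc
In these windows Cox6b1 held 1 such match, Cox8a held 2, and Cox7b, Cox6b2 and Cox7b2 held none. Among the 68 members with a promoter in the table, 16 (23.5%) held CCGGAAG, against 9.12% of all 27025 promoters. The motif of NRF1 (GCGCA, any base, GCGC) was found in 16 (23.5%) against 4.78%, and the cyclic AMP response element TGACGTNA in 4 (5.9%) against 3.08%. Both strands were searched for each motif, no motif contains another, and a match is a description of the sequence and not a bound site.

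Between the natural testes at E18.5 and at 12 weeks the testis forms of complex IV appeared while their general forms fell. Cox8c was at 1.87, 0, 1.75 and 0 CPM in the 4 fetal testes and at 454, 465, 411, 469 and 464 CPM in the 5 adult testes. Cox7b2 was at 1.12, 0.964, 0.701 and 1.01 CPM in the fetal testes against 90.8, 91.6, 81.6, 93.5 and 87.4 CPM in the adult ones. Cox6b2 was at 8.97, 11.6, 12.8 and 21.1 CPM before birth and at 345, 330, 327, 336 and 321 CPM in the adult. The ages did not overlap for any of these genes, and Cox6b2 was the testis form already clearly counted in every fetal library. On the log2 scale, differences were 8.89 (SE 0.31) for Cox8c, 6.54 (SE 0.17) for Cox7b2 and 4.64 (SE 0.16) for Cox6b2. The fold of Cox8c rests on counts of 0 to 10 in the fetal naturals, so its size is uncertain. Cox7b fell by 2.47 on the log2 scale (SE 0.19), from 21.9, 19.6, 21 and 20.1 CPM to 4.03, 4.73, 3.47, 2.82 and 3.43 CPM. Ndufa4, long assigned to complex I and now placed in complex IV, fell by 2.19 (SE 0.11), Cox8a by 1.70 (SE 0.12) and Cox6b1 by 1.13 (SE 0.13). Each of these differences had an adjusted p of 3.38e-07 or less in edgeR's quasi-likelihood test. The libraries are of whole testis, so fewer cells of a type and less RNA per cell cannot be told apart.

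**Figure D1:**
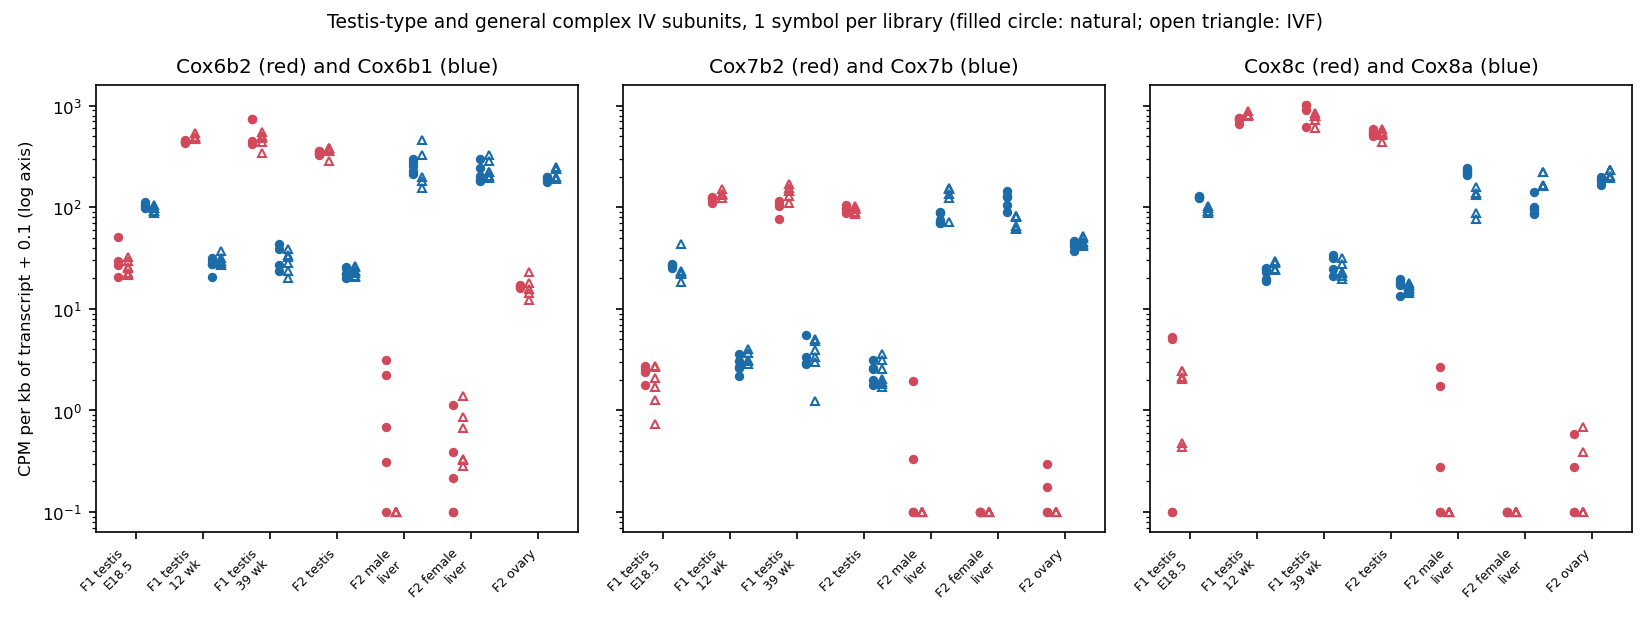
Levels of the testis forms and general forms of 3 complex IV subunits in every library, in CPM per kilobase of transcript plus 0.1 on a log axis, with natural (circles) and IVF (triangles) libraries of each of the 7 experiments side by side. In the adult testes Cox6b2, Cox7b2 and Cox8c lie above Cox6b1, Cox7b and Cox8a, and at E18.5 and in livers and ovary they lie below.

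The exchange was close to complete when each pair was compared per transcript length. Per kilobase, Cox8c made up 0% to 4.03% of the sum of Cox8c and Cox8a at E18.5 and 96.5% to 97.5% at 12 weeks, IVF libraries included. Cox7b2 made up 1.44% to 12.4% of its pair with Cox7b before birth and 97.2% to 98.4% at 12 weeks. Cox6b2 made up 16.4% to 34.0% and then 92.6% to 95.4%. The shares held at 39 weeks and in F2 testis, where the lowest of any pair in any library was 92.97%. In natural testes at 12 weeks the levels per kilobase were 729 ± 39 CPM for Cox8c, 443 ± 12 for Cox6b2 and 121 ± 6.4 for Cox7b2 (SD, n = 5). For the general forms they were 22.2 ± 2.9 CPM for Cox8a, 27.3 ± 4.1 for Cox6b1 and 2.72 ± 0.53 for Cox7b. The order from Cox8c to Cox6b2 to Cox7b2 was the same in the naturals at 39 weeks (891 ± 190, 588 ± 180 and 101 ± 17 CPM per kilobase, n = 4). There the spreads of Cox8c and Cox6b2 overlapped. In F2 naturals the levels were 544 ± 32, 345 ± 13 and 95.5 ± 7.2 CPM per kilobase (n = 5). Members without such a switch included Cox4i1, at 265 ± 22 CPM per kilobase at 12 weeks, and Cox7a2, at 190 ± 5.6. The muscle forms Cox6a2 and Cox8b were at or near 0 in all 7 experiments, with group means of at most 0.946 and 0.29 CPM per kilobase. Cox7a1, the other muscle form, was at 8.53 ± 4.2 CPM per kilobase in natural fetal testes (n = 4) and at 12.5 ± 1.7 in natural (n = 4) and 16.7 ± 4.5 in IVF ovaries (n = 5).

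Over the whole chain, 79 members were tested between the ages. Of these, 54 rose and 10 fell toward 12 weeks (53 and 10 without Ndufs5, whose rise cannot be read, as described next), where 84.3% of all genes tested passed, 45.1% rising and 39.2% falling. The median log2 difference of the members was 0.79, against 0.15 for all genes. With size factors of DESeq2 the all-gene median moved to 0.26 and with library totals alone to -0.60. Relative to it the members stood 0.63 higher under all 3 scalings. A scaling shifts all genes nearly alike, so this value could hardly differ between them and their likeness adds no support. With library totals alone 30 members rose and 31 fell, so the count of rising members depends on the scaling. With TMM, 7 of 8 genes of complex III and 24 of 34 of complex I, Ndufs5 left out, rose. Of complex II, only Sdhb, its iron-sulfur subunit, passed the test, with a rise of 1.57. Ndufa12, an accessory subunit of complex I, rose by 2.58 (SE 0.13) and Ndufa4l2 by 2.34 (SE 0.17). Ndufb11, an X-linked accessory subunit of complex I, fell by 1.96 (SE 0.12), from 59.6 to 68.4 CPM in the fetal naturals to 12.7 to 18.9 CPM in the adult ones. Atp5g2, 1 of 3 genes for subunit c of ATP synthase, fell by 1.22 (SE 0.20).

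The direction of the list as a whole changed when the trend on transcript length was removed in this comparison. The members are short, with a median of 714 bases against 2644 for all genes, and the adult and fetal tables were counted on different gene models. With the trend of fold change on length removed, 12 members were higher and 57 lower, and the median was -1.49. That trend was fitted over all genes with a known length, so these values are relative to genes of like length. The counts over all genes under this setting are not given here, so the shift cannot be called particular to the members. The directions named above for Cox8c, Cox7b2, Cox6b2, Cox7b, Ndufa4, Ndufb11, Cox8a and Cox6b1 were the same under that setting, whereas Cox4i1 (1.12), Cox6a1 (0.31) and Cox7a2 (2.03) turned below 0. With library totals alone Cox6a1 turned too, to -0.45. The fitted rise of Ndufs5 (10.62) cannot be read, because this gene was listed at 0 in all 10 libraries at E18.5 while its pseudogene Ndufs5-ps held 32 to 288 counts there. Of the mobile carriers, the testis form of cytochrome c, Cyct, rose by 5.38 (SE 0.22) and the somatic Cycs fell by 0.82 (SE 0.13). Of 45 assembly factors tested, 21 rose and 14 fell, and of 13 regulators 5 rose and 4 fell. Of all genes, 45.1% rose and 39.2% fell. These splits are with TMM and are not given for the other settings.

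In F2 naturals the comparison of testis with male liver gave the same exchange of isoforms. Of 82 members tested, 6 were higher and 74 lower in testis, where 92.5% of all genes passed, 58.1% higher and 34.4% lower. The members had a median log2 difference of -1.97 and all genes one of 1.25. With size factors of DESeq2 the medians were -1.62 and 1.61 and with library totals alone -1.12 and 2.11. The members thus stood 3.22, 3.23 and 3.23 below all genes under TMM and these 2 scalings. Since a scaling shifts all genes nearly alike, the likeness of these values was set in advance. With TMM, all 4 complex II genes, all 8 of complex III and 33 of 35 of complex I were lower in testis. With library totals alone 10 members were higher and 65 lower, and Ndufa12, Ndufv2, Ndufc1 and Cox7a2 were then among the higher. In levels scaled within each tissue, Ndufv2 was at 56.4 CPM per kilobase in natural testis and 31.8 in natural male liver, and Uqcrc1 at 152 and 151. The 6 higher members were Cox8c, Cox7b2, Cox6b2, Cox4i2, Ndufa4l2 and Atp5s. Cox4i2, a form of subunit 4 known from lung and from cells that sense oxygen, was 4.91 higher (SE 0.46), at 1.73 ± 0.23 CPM in testis. Ndufa4l2, whose gene is known to respond to hypoxia, was 2.90 higher (SE 0.23).

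The fitted differences were 8.79 for Cox8c, 7.61 for Cox7b2 and 7.49 for Cox6b2. On the liver side they rest on natural male livers 1, 4 and 5, the libraries with spermatid transcripts, which held 12, 4 and 14 counts of Cox8c, 2, 0 and 12 of Cox7b2 and 19, 16 and 20 of Cox6b2. Natural male livers 2 and 3 held 0 counts of Cox8c and Cox7b2 and 0 and 2 of Cox6b2, and no IVF male liver held a count of any of the 3. Against a floor of 3 counts per library in male livers 2 and 3, which covers counting error only, Cox8c was at least 758-fold and Cox7b2 at least 158-fold higher in testis. With natural livers 1, 4 and 5 left out, 6 members were higher and 72 lower. The general forms lay at the other end: Cox7b was 6.11 lower (SE 0.15), Ndufa4 5.34 lower (SE 0.07), Cox8a 4.74 lower (SE 0.11) and Cox6b1 4.5 lower (SE 0.11). Ndufb11 of complex I was also far down, at 4.62 lower (SE 0.13). Cox7a2, at -0.52 (SE 0.10), was the complex IV gene nearest to 0, and its value was 0.05 with genes under 10 counts in any library left out and 0.34 with library totals alone. Among the carriers, Cyct was 8.43 higher in testis and Cycs 2.3 lower. Of the regulators, Ppargc1a (-2.52) and Esrra (-1.69), both activators of respiratory genes, were lower and Nrf1 (0.11, adjusted p = 0.394 in edgeR's test) did not pass with TMM. Cytosolic ribosomal protein genes were also lower, 77 of 85 with a median of -1.49.

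**Figure D2:**
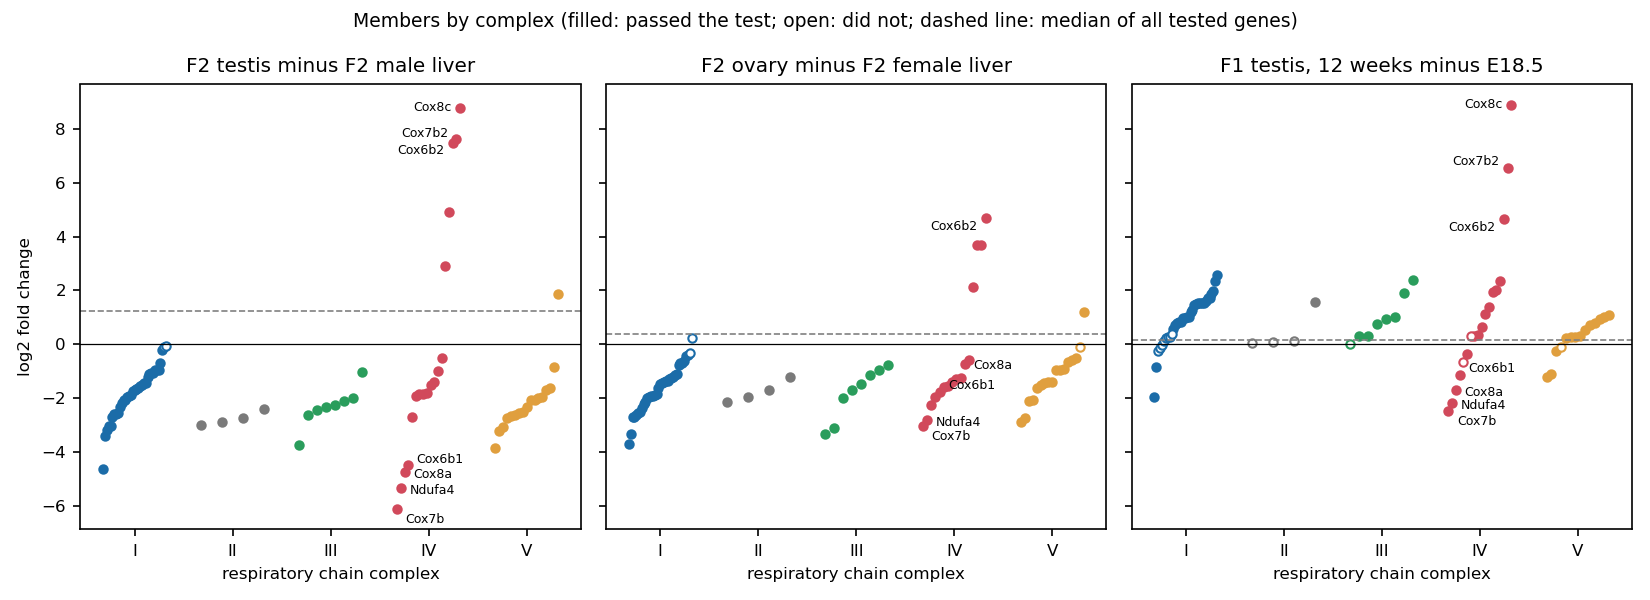
Log2 differences of the members between natural F2 testis and male liver, natural F2 ovary and female liver, and natural F1 testis at 12 weeks and E18.5, with members ordered within each complex. Filled points passed the test, the dashed line is the median of all genes tested, and Ndufs5 is left out of the panel of ages. The testis forms of complex IV stand far above the rest in both testis panels, and Cox7b, Ndufa4, Cox8a and Cox6b1 lie at the low end of complex IV there.

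Between ovary and female liver the direction of most members depended on the scaling between the tissues. Of 80 members tested in F2 naturals, 5 were higher and 72 lower in ovary with TMM, where 77.0% of all genes passed, 44.8% higher and 32.2% lower. The median was -1.44 for members and 0.40 for all genes. With library totals alone 38 members were higher and 18 lower, and the medians were 0.32 and 2.15. The members took 0.749% to 0.832% of counts in natural ovaries and 0.673% to 0.786% in natural female livers. Relative to all genes they stood 1.84 lower with TMM or size factors of DESeq2 and 1.83 lower with library totals. Here too the scaling could hardly change this value, so its likeness adds no support. The genes named in the rest of this comparison kept their direction with library totals alone. Cox6b2 was 4.69 higher in ovary (SE 0.62), at 4.73 ± 0.095 CPM against 0.24 ± 0.36 CPM in liver. It made up 6.06% to 8.76% of its pair with Cox6b1 in the 9 ovary libraries. Cox7a1 (3.67, SE 0.79), Ndufa4l2 (3.67, SE 0.50), Cox4i2 (2.11, SE 0.88) and Atp5g2 (1.19, SE 0.25) were also higher. Lower by most were Ndufb4 (-3.70), Uqcrb (-3.35), Ndufa5 (-3.31), Uqcrh (-3.11) and Cox7b (-3.04). Ndufb4, Uqcrb, Ndufa5, Uqcrh, Cox7b, Ndufa4l2 and Atp5g2 are also genes whose level differed between the female liver groups, described next, so these values depend on which livers were used. Cox7b2 and Cox8c were not tested in ovary, since no ovary library held more than 2 and 4 counts of them.

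Over the 14 groups of natural and IVF libraries, the group means per kilobase of the testis forms were compared with those of 22948 genes. The patterns nearest to Cox6b2 were those of Ccsap (Pearson's r 0.998), H2afy3 (0.998) and Psmc3ip (0.998). Nearest to Cox7b2 were Stamos, 1700040D17Rik and Pax1, and nearest to Cox8c were Tsga8, 4933438K21Rik and Ubl4b, all with r above 0.999. Between members, Cox8c and Cox7b2 had r 0.997, while Cox6b2 had 0.938 with Cox7b2 and 0.929 with Cox8c. Many other genes lay nearer. Cox8c had rank 66 among the genes most like Cox7b2, and Cox7b2 had rank 416 for Cox8c. For Cox6b2 they had ranks 2366 (Cox7b2) and 2780 (Cox8c), and the nearest member was Ndufa4l2 (r 0.968, rank 1043). Cyct had r 0.997 with Cox7b2. These values describe 14 group means, among which the adult testes stand apart, and carry no test.

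The study asked how IVF affected the testes and sperm of the males so conceived, and whether the next generation was affected. Transcripts were a part of that question. In the F1 testis at E18.5, 81 members were tested and 1 passed, where 1.17% of all genes did, 0.357% falling and 0.818% rising. Cox8a, the general form of subunit 8, was at 68, 71.4, 69.4 and 69.6 CPM in naturals and at 50.1, 50.4, 47.8, 54.3, 57.1 and 48.5 CPM in the IVF group. The groups did not overlap, and the difference was -0.44 (SE 0.08, adjusted p = 0.0277 in edgeR's test). It passed in 5 of 10 fits that each left out 1 library, and was lost without IVF 1, 3, 4 or 6 or natural 4, with adjusted p from 0.0511 to 0.0719. With the trend on length or on GC content removed, or with libraries thinned to equal depth, it was -0.29, -0.32 and -0.33 and did not pass. Of the other members, Cox6a1 came nearest, at -0.35 (SE 0.09, adjusted p = 0.0579 in edgeR's test). It passed in that test without natural 2 (-0.41, adjusted p = 0.0247), the natural library with its lowest level.

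The members as a whole leaned lower in the IVF fetal testes by a small amount. The log2 difference was below 0 in 70 of 81 members, with a median of -0.15 against 0.00 for all genes, and 22 had an unadjusted p under 0.05, where 17.7% of all genes did. In 10 members every IVF library lay below every natural, where 2.58% of all genes did, and in no member did all lie above, where 3.51% did. All 17 complex IV genes tested were below 0, with a median of -0.21. Cytosolic ribosomal protein genes, also short and abundant, had a median of -0.16. With the trend on length removed, the median of the members was -0.04. Sertoli cell markers summed to 1616 to 2240 CPM in naturals and 1211 to 1626 CPM in the IVF group, and their part in the differences was not tested.

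In the 12-week testis none of 82 members passed, where 0.746% of all genes did (0.0746% higher, 0.671% lower), although 41 had an unadjusted p under 0.05. Of all genes, 12.9% had such a p. The difference was above 0 in 78 members, and the median was 0.18 against 0.01 for all genes. Uqcr11, the smallest subunit of complex III, was at 17.9, 20.7, 17, 17.1 and 19.8 CPM in naturals and at 22.3, 25.1, 24.4, 25.9 and 21.3 CPM in the IVF group. Its groups did not overlap, and the difference was 0.36 (SE 0.10, adjusted p = 0.117). Ndufb10, an accessory subunit of complex I, was at 73.5 to 82.4 CPM in naturals and 84.8 to 103 CPM in the IVF group, with a difference of 0.24 (SE 0.07, adjusted p = 0.128). Uqcrq of complex III was at 206, 141, 135, 133 and 140 CPM in naturals and at 208, 213, 182, 214 and 187 CPM in the IVF group, with a difference of 0.41 (SE 0.11, adjusted p = 0.128). Natural 1 thus lay among the IVF libraries for Uqcrq, and without it the gene passed (0.54, adjusted p = 0.00108 in edgeR's test). Leaving out such a library widens the difference, so that fit adds no support for it. In all, 11 members had IVF above every natural, where 0.915% of all genes did, and none had IVF below, where 2.15% did. Those 11 included Cox8c, Cox6b2, Cox7a2 and Cox6a1, with differences of 0.17, 0.15, 0.20 and 0.18. The members took 0.568% to 0.616% of counts in naturals and 0.629% to 0.670% in the IVF group. Ribosomal protein genes had a median of 0.20, with 83 of 85 above 0, and with the length trend removed the median of the members was 0.09. DESeq2 called 5 members here, all higher, among them Uqcr11, Ndufb10, Uqcrq and Cox7a2, and 441 of all genes, 120 higher and 321 lower.

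At 39 weeks the direction of the list was the opposite and the spread wider. None of 82 members passed, where 0.00996% of all genes did, and 7 had an unadjusted p under 0.05, where 10.5% of all genes did. No member had groups apart, where 1.76% of all genes had IVF above and 1.56% below. The difference was below 0 in 67 members, with a median of -0.13 against 0.01 for all genes. The members took 0.703%, 0.719%, 0.520% and 0.612% of counts in naturals 1 to 4 and 0.496% to 0.681% in the IVF group. Only natural 1 and 2, a pair summed as near-identical in an alternative fit, lay above every IVF library. With each library left out in turn the median was -0.23 to -0.08, and no such fit left out both. The smallest p was that of Cox7b2, at 58.4, 62.7, 41.6 and 55.6 CPM in naturals and at 91.5, 77.9, 84.4, 60.3, 70.8 and 78.8 CPM in the IVF group. Only IVF 4 lay within the range of naturals, and the difference was 0.50 (SE 0.14, adjusted p = 0.253). Cox8c (-0.23) and Cox6b2 (-0.33), the other testis forms, had differences below 0 and did not pass either. Atp5g2 followed with -0.53 (SE 0.20, adjusted p = 0.365) and Uqcrb with 0.35 (SE 0.13, adjusted p = 0.387). Ribosomal protein genes had a median of -0.16. Elongating spermatid markers summed to 14686 to 29500 CPM in naturals and 15507 to 22841 CPM in the IVF group.

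In the F2 testis the members were level. None of 83 passed, where 1.61% of all genes did (0.942% higher, 0.667% lower), and 4 had an unadjusted p under 0.05, where 13.9% did. No member had groups apart, where 1.04% of all genes had IVF above and 0.886% below. The median was -0.01 with 39 members above and 44 below 0. Ndufs4, an accessory subunit of complex I whose loss is known as a cause of Leigh syndrome, had the smallest p. It was at 27.3, 23.9, 25.8, 22 and 25.9 CPM in naturals and at 24.7, 24, 32, 34.5, 35, 33.3 and 35.3 CPM in the IVF group. IVF 1 and 2 lay within the naturals and the other 5 above them, and the difference was 0.32 (SE 0.10, adjusted p = 0.111). Without IVF 1 or IVF 2 it passed, at 0.37 and 0.38 with adjusted p of 0.0398 and 0.0287 in edgeR's test. Leaving out a library within the natural range widens the difference, so these fits add no support for it. Ndufb10 (0.16) and Uqcrq (-0.19) followed with adjusted p of 0.273 and 0.316. Among the other genes of the pathway, the complex I assembly factor Ndufaf2 fell by 0.48 (SE 0.09, adjusted p = 0.00526) and Tfb1m, a methyltransferase of mitochondrial ribosomal RNA, rose by 0.47 (SE 0.08, adjusted p = 0.00265).

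The ratios of testis to general forms were compared by conception. Over the 3 pairs and 4 testis experiments, 12 two-sided exact permutation tests were made, and none passed. The smallest p was 0.0667, for Cox7b2 over Cox7b at 39 weeks (difference of 0.62 in log2 ratio, IVF higher), and its value adjusted over the 12 tests was 0.8. The smallest p these tests allow is 0.00952 with 4 and 6 libraries and 0.00794 with 5 and 5, so in F1 testes a single pair could not pass after adjustment.

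In the F2 ovary none of 80 members passed, where 0.0% of all genes did, while DESeq2 called none of the members and 170 of all genes, 123 higher and 47 lower. The members leaned higher in the IVF group: 77 were above 0, the median was 0.18 against -0.01 for all genes, and 26 had an unadjusted p under 0.05, where 10.6% of all genes did. All 35 complex I genes and all 8 complex III genes were above 0. Cox5a, a subunit of complex IV near its matrix side, was at 57.5, 64.2, 62.9 and 65.3 CPM in naturals and at 85.6, 67.9, 101, 81.7 and 72.8 CPM in the IVF group. These groups did not overlap, and the difference was 0.39 (SE 0.11, adjusted p = 0.348). Ndufc1 (0.46, SE 0.14) and Atp5j2 (0.32, SE 0.10) had adjusted p of 0.377 and 0.38. In all, 6 members had IVF above every natural, where 2.08% of all genes did, and none had IVF below, where 1.56% did. Markers of steroidogenic cells, which the ovary shares with Leydig cells, summed to 11855 to 22384 CPM in naturals and 22486 to 31249 CPM in the IVF group. Oocyte markers summed to 249.1 to 283.9 CPM in naturals and 159.2 to 249.06 CPM in the IVF group. The part of these cells in the differences was not tested.

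**Figure D3:**
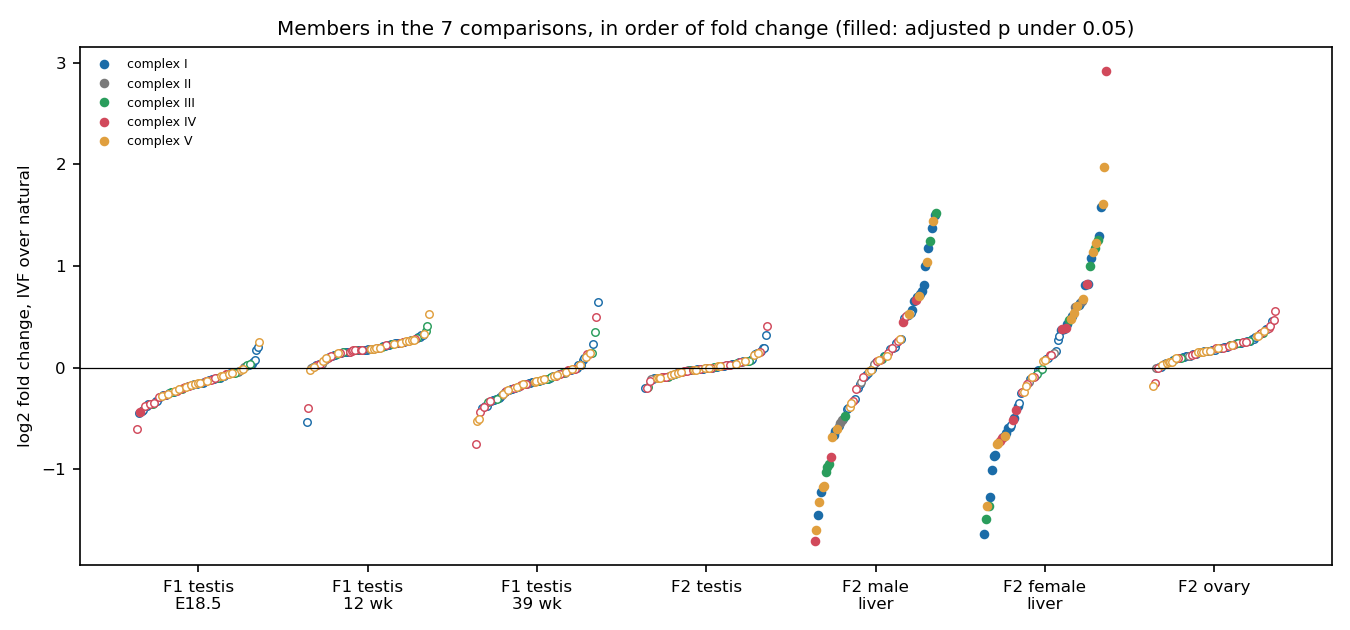
Log2 differences of the members, IVF over natural, in each of the 7 experiments, with 1 point per member, colored by complex, and filled points for those that passed the test. In testis and ovary the points lie close to 0, with medians from -0.15 to 0.18 and 1 filled point, while in the livers they spread from -1.71 to 1.52 in males and from -1.63 to 2.92 in females.

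The livers of F2 animals differed by far more. In male liver 37 of 77 members passed, 19 higher and 18 lower in the IVF group, where 34.4% of all genes passed, 16.1% higher and 18.4% lower. In female liver 50 of 77 passed, 29 higher and 21 lower, where 49.0% of all genes passed, 25.4% higher and 23.6% lower. In males 12 members had every IVF library above and 17 every one below the naturals, where 10.7% and 16.2% of all genes had. In females these were 21 and 10, where 16.4% and 13.1% of all genes had. The medians were near 0 in both (0.06 and 0.07), and in complexes I, III, IV and V some genes rose and others fell. With the trend on GC content removed the splits were 27 higher and 11 lower in male liver, where all genes had 1448 and 1009. In female liver they were 20 and 26, where all genes had 1506 and 1755, and with the length trend removed 22 and 27, where all genes had 3035 and 3139.

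Uqcrh, the hinge protein of complex III that aids electron transfer to cytochrome c, was at 54.8, 52.4, 61, 56.4 and 63.1 CPM in natural male livers and at 167, 172, 128, 126 and 224 CPM in IVF male livers. In female livers it was at 198, 117, 231, 197 and 142 CPM in naturals and at 60.2, 101, 58.6, 60.8, 65 and 70.6 CPM in the IVF group. Neither sex showed an overlap between its groups, and the ranges of IVF males and natural females overlapped. Uqcrh rose by 1.52 (SE 0.18, adjusted p = 6.66e-05) in males and fell by 1.36 (SE 0.19, adjusted p = 4.08e-05) in females. Uqcrb, another small subunit of complex III, went the same way, with a rise of 1.25 and a fall of 1.49. It was at 77.6 to 88.4 CPM in natural males, 128 to 241 CPM in IVF males, 134 to 278 CPM in natural females and 68.3 to 98.5 CPM in IVF females. Uqcrq, Uqcr11, Uqcrc1 and Uqcrfs1 of the same complex moved against them, with male differences of -0.97, -1.02, -0.95 and -0.48 and female differences of 1.00, 1.18, 1.25 and 0.47. Uqcrc1 is a core protein and Uqcrfs1 the Rieske iron-sulfur protein. Uqcr10 and Uqcrc2 did not pass in either sex.

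**Figure D4:**
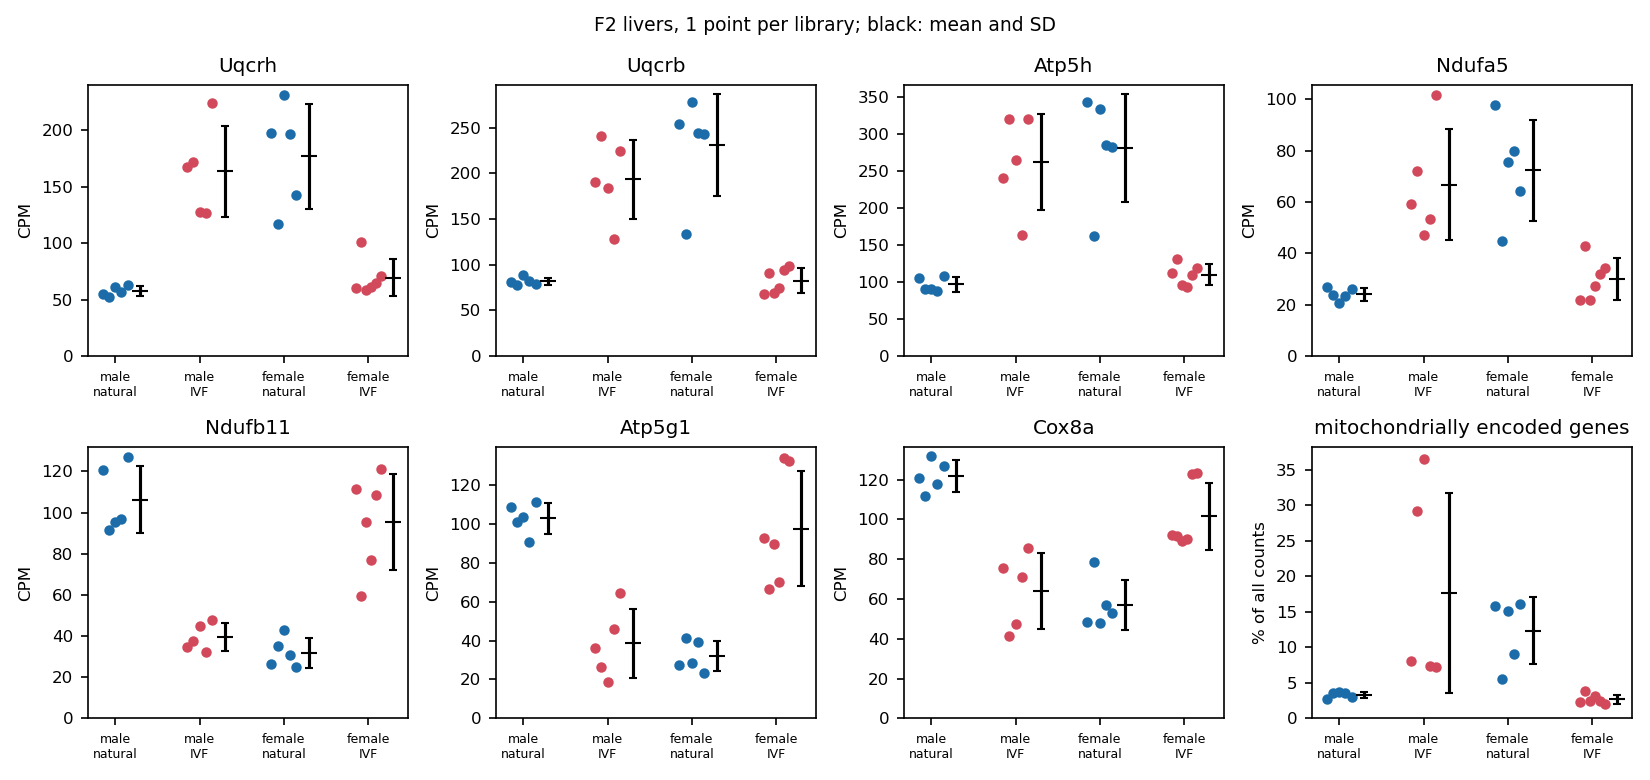
CPM of 7 members and the percent of counts from mitochondrially encoded genes in each F2 liver library, 1 point per library with mean and SD in black, each panel on its own axis. Uqcrh, Uqcrb, Atp5h, Ndufa5 and the mitochondrial share are high in IVF males and natural females and low in the other livers, and Ndufb11, Atp5g1 and Cox8a are the reverse.

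Complex I, the largest complex with 35 genes, had 15 called in males (11 higher, 4 lower) and 22 in females (11 and 11). Over all 77 members 37 and 50 were called, and of all genes 34.4% and 49.0%. Ndufb11 was at 121, 91.6, 95.4, 96.7 and 127 CPM in natural males and at 34.9, 37.5, 44.9, 32.2 and 47.8 CPM in IVF males. In natural females it was at 26.4, 35.3, 42.7, 30.7 and 24.8 CPM and in IVF females at 111, 59.3, 95.6, 77, 109 and 121 CPM. It fell by 1.44 (SE 0.17) in males and rose by 1.58 (SE 0.20) in females, with no overlap in either sex. Ndufv1, the core subunit that binds NADH, fell by 1.22 and rose by 1.30, and Ndufa3 rose by 1.08 in females. Ndufa5, Ndufb4, Ndufa6, Ndufa10 and Ndufs1 moved in the other direction. Their male differences were 1.5, 1.38, 1.18, 0.75 and 0.73 and their female differences -1.27, -1.63, -1.01, -0.58 and -0.69. Ndufs1 is the largest core subunit and carries iron-sulfur clusters, so core subunits were found on both sides. In complex II the membrane anchors Sdhc and Sdhd fell in males (-0.52 and -0.54) and rose in females (0.60 and 0.65), while Sdha, the flavoprotein, was at -0.14 in both and did not pass.

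In complex V, Atp5h, subunit d of the stator stalk, was at 87.4 to 109 CPM in natural males, 164 to 321 CPM in IVF males, 162 to 344 CPM in natural females and 93.4 to 132 CPM in IVF females. It rose by 1.44 in males and fell by 1.36 in females. Atp5j, coupling factor 6 of the same stalk, had differences of 0.71 and -0.75. Atp5c1, the gamma subunit, and Atp5o, another stalk protein, did not pass in either sex. Atp5g1 and Atp5g2, which encode the same subunit c of the membrane ring, fell by 1.32 and 1.59 in males and rose by 1.61 and 1.97 in females. Atp5d and Atp5e, the delta and epsilon subunits of the central stalk, fell by 1.16 and 1.17 in males and rose by 1.23 and 1.14 in females. Atp5b, the catalytic beta subunit, had differences of -0.69 and 0.68.

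In complex IV 4 of 13 genes passed in males and 8 of 13 in females, where 34.4% and 49.0% of all genes did. Cox8a fell by 0.88 (SE 0.19) in males and rose by 0.83 (SE 0.15) in females, while Cox7b rose by 0.67 (SE 0.20) and fell by 0.72 (SE 0.14). Ndufa4 rose by 0.45 (SE 0.17, adjusted p = 0.047) in males and fell by 0.51 (SE 0.13) in females. Its paralog Ndufa4l2 did the reverse, with -1.71 (SE 0.57) and 2.92 (SE 0.51), on levels of 0 to 2.6 CPM. Cox4i1 rose by 0.39 (SE 0.12) in females but stood at -0.44 with the GC trend removed, and Cox8a stood at -0.08 there under that setting. Cox6a1 and Cox6b1 did not pass in either sex, with differences of 0.07 in males and 0.13 in females for both genes. With the GC trend removed Cox6a1 passed in both sexes, at 0.99 in males and -0.84 in females.

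**Figure D5:**
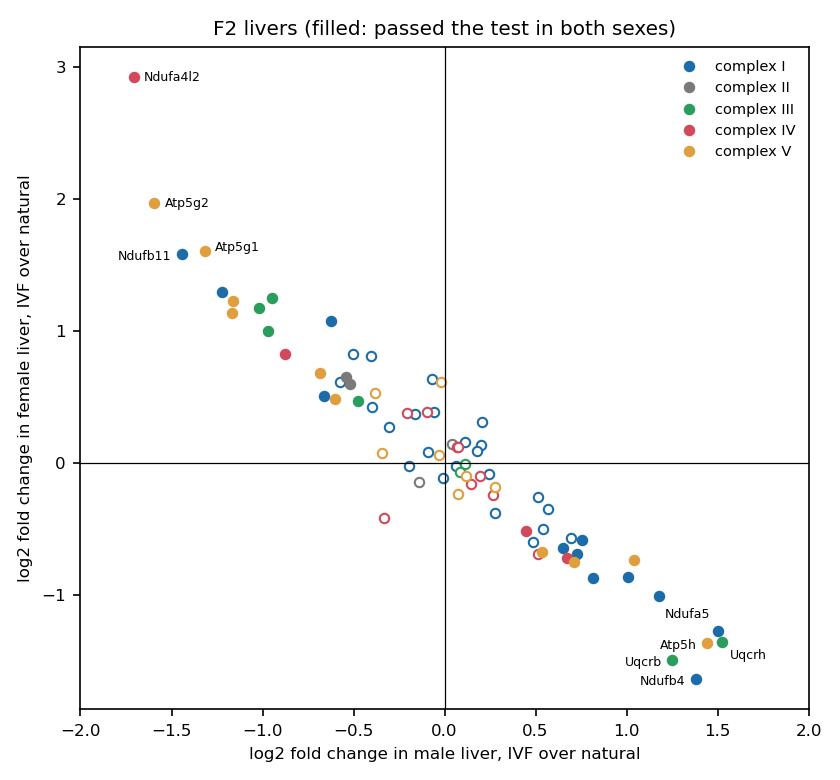
Log2 differences of 77 members, IVF over natural, in F2 male liver (horizontal axis) and F2 female liver (vertical axis), colored by complex, with filled points for those that passed in both sexes. The points fall along a line from upper left to lower right, and all filled points lie in the opposite-sign quadrants.

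The same members that passed in both sexes thus did so in opposite directions. Of 34 members called in both livers, 16 rose in males and fell in females and 18 did the reverse. Of 3430 genes called in both livers, 3417 had opposite directions, so opposite directions were shared by nearly all genes called in both. Over 77 members, Pearson's r between the male and female differences was -0.95 and 66 (85.7%) had opposite signs. Over all 11825 genes r was -0.78 and 82.2% had opposite signs, and over 82 ribosomal protein genes r was -0.94. These correlations run across genes of the same libraries and are given without a test. The interaction of sex and conception was tested in a fit of all 21 livers. It passed for 50 of 78 members, where 54.0% of all genes did. The IVF-minus-natural difference was more positive in daughters for 27 and more negative for 23, where 28.1% and 25.9% of all genes were. The smallest p belonged to Ndufb11 (3.04, SE 0.26, adjusted p = 3.22e-09), Uqcrh (-2.86, SE 0.26), Uqcrb (-2.72, SE 0.25), Atp5h (-2.79, SE 0.26) and Ndufa5 (-2.76, SE 0.30). With the GC trend removed the split was 18 and 31, where all genes had 2321 and 2475.

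The share of mitochondrially encoded transcripts differed between the groups in the same libraries. Female liver natural 2, with 5.59% of counts from the mitochondrial genome against 9.13% to 16.1% in the other natural females, was the lowest of them in Uqcrh, Uqcrb, Atp5h and Ndufa5. Female liver IVF 2, with the highest share of its group at 3.82%, was the highest of the group in Uqcrh, Atp5h and Ndufa5 and the lowest in Ndufb11. Other libraries did not follow this order: among IVF males Uqcrh was highest in IVF 5 (224 CPM), which had the lowest share at 7.20%, and was 128 CPM in IVF 3, which had the highest at 36.5%. The 7 mitochondrially encoded genes tested all rose in males, with a median of 3.20, and all fell in females, with a median of -2.78. Among them COX1, the catalytic subunit of complex IV, rose by 1.25 in males and fell by 1.57 in females. With that share as a covariate, 8 members were called in males (7 higher, 1 lower), none in females and 7 in the interaction (1 and 6). Of all genes, 432, 0 and 215 were called in these fits, against 4124, 6134 and 7056 without the covariate. Pearson's r between the male and female differences was then -0.44 over the members, with 61.0% of opposite sign, and -0.09 over all genes. Within each sex the shares of the groups did not overlap, so share and group cannot be told apart in these libraries. The log2 differences of members also followed GC content, with Spearman's rho of -0.41 in males and 0.48 in females, against -0.61 and 0.72 over all genes. With the GC trend removed, 35 members were called in both livers, all in opposite directions, as were 1607 of 1615 of all genes. With the 4 shallowest livers left out, 27 were, also all in opposite directions, as were 3102 of 3111 of all genes. Of 8 hepatocyte markers, 2 rose in males, where 16.1% of all genes did, and 3 fell in females, where 23.6% did. The other markers are not described here.

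With natural male livers 1, 4 and 5 left out, 9 members were called in males (5 higher, 4 lower) rather than 37, on 2 natural libraries, and 872 of all genes rather than 4124. The interaction then held 46 (24 and 22), and 5853 of all genes. Thinned to the depth of the shallowest library, 35 members were called in females, none in males and 2 in the interaction, where 2915, 31 and 90 of all genes were.

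Of the other genes of the pathway, 44 assembly factors were tested in the livers. Of these, 5 rose and 5 fell in males, where 34.4% of all genes passed, and 10 rose and 6 fell in females, where 49.0% did. Ndufaf2 rose by 1.52 and fell by 1.67, and Cox14, a complex IV factor, fell by 1.76 and rose by 1.5. Among 12 regulators, the coactivator Ppargc1a rose by 1.71 in males and fell by 1.25 in females. Esrra, a nuclear receptor that Ppargc1a is known to coactivate, went against it, with a fall of 2.01 in males and a rise of 2.19 in females. Nrf1 was at -0.38 in males (adjusted p = 0.292 in edgeR's test) and rose by 0.45 in females. Gabpb1 also passed in males, with a rise of 1.01, and Polrmt in females, with a rise of 1.11. How many of the 12 regulators passed is not given here. Cycs rose by 0.64 and fell by 0.53, and Atpif1, the inhibitor protein of ATP synthase, rose by 1.71 and fell by 1.56. In total, the members took 0.989% to 1.14% of counts in natural males and 0.569% to 1.05% in IVF males. They took 0.673% to 0.786% in natural females and 0.815% to 1.11% in IVF females, so that in females the groups did not overlap.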

How the data were processed

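Poly(A) RNA libraries were made with a stranded kit (KAPA Stranded mRNA-Seq) from 7 experiments, 72 libraries in all. Per the labels and the submitters' processing notes, the authors trimmed reads with Trimmomatic 0.32, aligned them to mm10 with STAR 2.3.0e and deposited raw counts per gene from featureCounts 1.5.0, in 1 table for each experiment. DESeq2 is also named in those notes. The E18.5 table uses another gene list than the other 6. Most low counts are even numbers, so both mates of a pair may have been counted, and a floor of 3 counts may stand for fewer fragments. No table held a column of other samples.

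Here, genes were kept by edgeR's filterByExpr, scaled by TMM and tested with edgeR's quasi-likelihood test (edgeR 4.0.16, R 4.3.3), with Benjamini-Hochberg adjustment over all genes of a comparison. A gene was called at an adjusted p under 0.05 with no fold limit. Every adjusted p in the text is from this test unless another is named. IVF was compared with natural within each experiment, natural libraries were compared between tissues and ages, and the interaction of sex and conception was fitted over both livers. CPM are TMM-normalised within a comparison, so a gene's CPM differs between comparisons. Levels per kilobase used transcript lengths of GENCODE M21. Ratios of isoforms were tested by two-sided exact permutation with a pseudocount of 0.5 counts. The steps were tested on simulated counts. Alternatives were DESeq2 1.42.0, its size factors, other filters, GC and length trends removed, thinning to the smallest library, halved counts, a replicate block, a limit of 1.5-fold and leaving out each library. Chosen after seeing the data were the mitochondrial share as covariate, mitochondrial genes left out, male livers with over 100 Prm1 counts left out, near-identical libraries summed, and library totals in place of TMM between tissues and ages.

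The members and gene lists were chosen with earlier results of these data known. Named were the isoform genes of complex IV in every comparison, the called members of smallest p per direction (at most 8) or else the 3 of smallest p, the 5 of largest fold per direction between tissues and ages, the 5 of smallest p in the interaction, and called genes of the other lists. Other genes named in the livers, and Sdhb, Atp5s and Ndufs5, were chosen after their values were seen. Samples with the same replicate number did not deviate together in any comparison, with correlations from -0.2953 to 0.3684 over pairs. No 2 libraries were equal within sampling noise: the closest pair had a chi-square of 2.78 per degree of freedom, and all libraries were kept. The pairs summed as near-identical in the alternative fit were natural 1 and 2 at 39 weeks, and natural 1 and 2 and IVF 3 and 4 of F2 testis. Their labels number them separately, and whether any pair came from the same animal was not tested.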

Additional observations from a re-analysis of the deposited data

Results flagged for a closer look

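In 128 checks of single libraries against the rest of their group, 10 stood apart, and chance alone gives about 1 in 20. In testis and ovary these were the members' share of counts in ovary natural 1 (0.7485%, others 0.82% to 0.8323%), Ndufb10 in 12-week natural 3 (73.52 CPM, others 80.39 to 82.43) and Uqcrq in 12-week natural 1 (205.7 CPM, others 133.3 to 141). Among log2 isoform ratios they were Cox7b2 to Cox7b in E18.5 natural 3 (-3.858, others -3.351 to -3.276), Cox6b2 to Cox6b1 in 12-week IVF 3 (3.641, others 4.067 to 4.106) and Cox8c to Cox8a in F2 testis natural 4 (5.324, others 4.871 to 4.958).

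In the livers they were Ndufs1 in male natural 4 (79.4 CPM, others 70.17 to 72.22), Atp5g2 in female IVF 2 (9.891 CPM, others 20.29 to 25.95), Uqcrb in female natural 2 (130.8 CPM, others 239.7 to 275.6) and Uqcrh in female IVF 2 (97.9 CPM, others 58.14 to 69.76). The libraries female natural 2 and female IVF 2 are those whose mitochondrial share lay nearest to the other group.

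In the livers, the IVF-minus-natural difference was not the same in daughters and sons, tested as an interaction. The daughters' value minus the sons' was 3.0365 for Ndufb11, -2.865 for Uqcrh, -2.7233 for Uqcrb, -2.7861 for Atp5h and -2.7576 for Ndufa5 on the log2 scale. Of 3430 genes called in both livers, 3417 had opposite directions. Mitochondrial share and group cannot be told apart in these libraries, and the cause was not tested.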

How the results depend on the processing

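At E18.5 the count of called members was 7 with DESeq2 (885 of all genes), 3 with at least 10 counts in every library (308 of all genes, against 181), and 0 with the GC or length trend removed, with thinning, with a limit of 1.5-fold or with the replicate block, and the median was -0.04 (-0.03673) with the length trend removed. At 12 weeks DESeq2 called 5 (441 of all genes), and the median was 0.09437 with the length trend removed. Male liver gave 9 without the libraries with spermatid transcripts, 8 with the mitochondrial share as covariate (median 0.2907) and 0 when thinned. With that covariate female liver gave 0 and the interaction 7, and thinning left 2 in the interaction. Between the ages, removing the length trend gave 69 called members, now mostly lower (12 higher, 57 lower). With library totals alone the ages gave 61 (30 higher, 31 lower) and ovary against female liver 56, now mostly higher (38 and 18). The cause of these changes was not tested.

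Single genes turned direction as follows. With the mitochondrial share as covariate, female liver gave Ndufv1 -0.02025 and Cox4i1 -0.02021, and the interaction of Cox4i1 was -0.3909. With the GC trend removed, female liver gave Cox4i1 -0.4375 and Cox8a -0.08052, and the interaction of Cox4i1 was -1.083. Thinned, the interaction of Cox4i1 was -0.569. With at least 10 counts in every library Cox7a2 was 0.05037 in testis against male liver. Between the ages, removing the length trend gave Cox4i1 -1.259, Cox6a1 -2.64 and Cox7a2 -0.6195. With library totals alone Cox6a1 was -0.4472 there, Cox7a2 0.3357 in testis against male liver, and Cox4i1 0.483, Cox6a1 0.5141, Cox6b1 0.004645, Cox7a2 0.3886 and Cox8a 1.033 in ovary against female liver.

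Leaving out each library in turn gave 0 to 3 called members at E18.5, 0 to 1 at 12 weeks and in F2 testis, 0 to 0 at 39 weeks and in ovary, 29 to 37 in male liver, 42 to 50 in female liver and 49 to 53 in the interaction. Between tissues and ages it gave 78 to 80, 74 to 76 and 61 to 65. The samples share only a replicate number. With that number as a replicate block, male liver gave 35 called members, female liver 38, the interaction 47, testis against male liver 79, ovary against female liver 76 and the ages 61. Of other alternatives for single genes, 3606 kept direction and call, 157 lost the call and 20 gained it. Depth limits the male livers most, where 1 library holds 543745 counts.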
